A study of Mus musculus with 106 samples.

Results

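Metallothioneins are small cysteine-rich proteins that hold zinc and copper ions in the cell. The mouse genes Mt1, Mt2 and Mt3 were followed by their symbols through 4 tables of raw read counts, of which the largest lists Ensembl identifiers (ENSMUSG00000031765, ENSMUSG00000031762 and ENSMUSG00000031760). They are 3 of 19169 gene symbols common to the 4 tables. The genes were selected on their measured fold changes between temperatures in earlier results of the same data, so their levels, fold changes and calls are given as a description without a p-value. The study asked how a lower or a higher housing temperature changes the transcriptome of each tissue.

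RNA was sequenced from tissues of male wild-type mice, given in the labels as C57BL/6J for quadriceps and the 34 °C experiment and as C57BL/6 for the rest, and in the methods as C57BL/6J, that were 8 weeks old at the start. Cold-exposed mice spent 2 weeks at 10 °C after steps of 5 days each at 18 and 14 °C, warm-exposed mice spent 4 weeks at 34 °C, and the control mice of each experiment stayed at room temperature (22 °C). The 10 °C experiment covered 11 tissues, namely interscapular brown (iBAT), inguinal subcutaneous (ingSAT) and perigonadal visceral (pgVAT) adipose tissue, liver, ileum, spleen, brain, hypothalamus, bone marrow, spinal cord and quadriceps, and 5 tissues of the 34 °C experiment were analysed here (iBAT, ileum, liver, brain and quadriceps). The labels give an age of 12 weeks for the 34 °C experiment and for quadriceps and of 11 weeks for the other groups. Each group held 3 libraries in most tissues, 6 in bone marrow and 5 in spinal cord, and most libraries were made from pooled mice, so the spread between them is a spread between pools, except in bone marrow and spinal cord, where each library came from a single mouse. The mice of the 10 °C and 34 °C experiments came from different vendors.

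Of 106 libraries, 105 were used. The 75 libraries of the 10 °C experiment held 4262403 to 58290770 counts and the 30 libraries of the 34 °C experiment held 29545458 to 62880248. In every tissue the defining marker genes were present and had a higher median sum than in the next tissue, except that ingSAT and pgVAT share the adipocyte markers. Single libraries can overlap, as the lowest brain library (3335 CPM of neuron markers) was below the spinal cord median (3609 CPM). This check crosses the tables and is only a rough one. Levels are given as CPM, counts scaled to a common library size with factors from the trimmed mean of M values (TMM), and in such bulk RNA fewer cells of a type and less RNA per cell cannot be told apart. The brain library of 22 °C replicate 2 was left out because the authors' group means equal those of replicates 1 and 3, in 1960 of 1960 genes compared. No rule on outliers was used for this choice of library. The Mt1, Mt2 and Mt3 levels of replicate 2 were 91.6, 17.9 and 80.2 CPM, below every other brain library of the largest table.

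Mt1 and Mt2 are made in most tissues. Their genes are switched on by zinc and cadmium through the metal-responsive transcription factor MTF-1, which binds short metal response elements, and also by glucocorticoids, by inflammatory cytokines and by oxidative stress. In liver they belong to the genes that rise in the acute-phase response, whereas Mt3 is best known from the central nervous system, where it holds zinc in neurons and astrocytes.

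The genes lie side by side on chromosome 8, plus strand, of the GRCm38 assembly (GENCODE annotation). Mt3 spans chr8:94152607-94154146, Mt2 spans chr8:94172664-94173568 and Mt1 spans chr8:94179082-94180327, so Mt2 and Mt1 are only 5513 bases apart, and each has 3 exons. The coding sequences are shown because counts of near-identical genes can be split between them. Codons for cysteine, the residue that binds the metal, are in capitals, and each gene has 20 of them.
Mt1: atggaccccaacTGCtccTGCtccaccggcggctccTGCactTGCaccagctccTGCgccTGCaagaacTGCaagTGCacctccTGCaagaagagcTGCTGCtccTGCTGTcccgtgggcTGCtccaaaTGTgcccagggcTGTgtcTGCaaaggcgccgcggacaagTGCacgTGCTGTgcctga
Mt2: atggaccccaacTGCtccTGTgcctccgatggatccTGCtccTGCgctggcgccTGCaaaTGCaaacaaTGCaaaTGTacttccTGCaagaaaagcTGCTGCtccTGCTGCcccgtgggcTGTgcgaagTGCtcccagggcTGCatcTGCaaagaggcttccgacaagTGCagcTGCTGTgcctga
Mt3: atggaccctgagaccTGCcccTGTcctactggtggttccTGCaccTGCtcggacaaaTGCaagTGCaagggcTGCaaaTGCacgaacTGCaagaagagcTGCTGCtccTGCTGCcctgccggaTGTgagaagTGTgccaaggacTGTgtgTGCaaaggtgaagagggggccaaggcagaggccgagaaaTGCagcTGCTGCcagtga
Mt1 and Mt2 each encode 61 amino acids and Mt3 encodes 68. Mt1 and Mt2 are identical at 148 of 186 coding bases (79.6%), and Mt3 is identical to Mt1 at 65.2% and to Mt2 at 67.6% of 207 aligned bases. Of the 500 windows of 50 bases in the Mt1 transcript, 462 in Mt2 and 487 in Mt3, 0 occur in the transcript of another gene, so reads of the length used can be told apart between the members where they match exactly.

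The stretch between the annotated transcript start and the start codon holds matches to the core of the metal response element, TGCACNC or TGCGCNC on either strand. There are 4 matches in the 229 bases of Mt1, 3 in the 184 bases of Mt2 and 3 in the 193 bases of Mt3. A window of 180 bases before the start codon holds 2, 3 and 3 of them, and of 8133 genes with such a window 20.5% hold at least 1 and 0.713% hold 3 or more. Windows around the RefSeq transcript start, which can overlap that stretch, hold 3 matches in Mt1, 4 in Mt2 and 1 in Mt3. Of these, 1, 3 and 0 lie before the first annotated start. Of 32851 such windows 25.7% hold at least 1 and 0.517% hold 4 or more. A match of letters is not a binding site. The following match of each gene is shown with 30 bases of context and the core in capitals, at chr8:94179098-94179127, chr8:94172718-94172747 and chr8:94152682-94152711.
Mt1: cgcccgaaaagTGCGCTCggctctgccaag
Mt2: ggcggagctttTGCGCTCgacccaatactc
Mt3: aagtcgctgctTGCGCGCccccgcctgggg

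At 22 °C, Mt1 was highest in brain and lowest in liver in the largest table, and highest in iBAT and spinal cord and lowest in quadriceps in the other tables. Levels are compared between tissues only within a set of tables. The sets differ in library kit, with the possible exception of quadriceps at 10 °C, and the 34 °C experiment also in the vendor and age of the mice. Within the other tables, bone marrow and spinal cord thus differ from the tissues of the 34 °C experiment in vendor and age. TMM factors were computed within each tissue and experiment, so the levels of different tissues share no TMM scale. In the largest table Mt1 averaged 210.0 CPM in brain (203 and 217, n = 2), 118 ± 4.26 (SD, n = 3) in hypothalamus, 116 ± 13.5 in iBAT and 113 ± 21.7 in pgVAT, and the ranges of the last 3 overlapped. It was lower in ingSAT (69.2 ± 5.36), ileum (30.8 ± 14.9) and spleen (22.1 ± 6.86), the last 2 overlapping, and lowest in liver (5.55 ± 3.31). In the other tables, iBAT (276 ± 47.8 CPM, n = 3) and spinal cord (241 ± 16.9, n = 5) overlapped at the top. Ileum (139 ± 38.1) and brain (133 ± 13.6) overlapped below them, followed by liver (55.6 ± 11.5), bone marrow (19.1 ± 1.74, n = 6) and quadriceps (11.5 ± 3.17 and 8.57 ± 3.76 in its control groups).

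Mt2 followed a broadly similar order with a lower level in every tissue. It averaged 48.7 ± 6.59 CPM in pgVAT, 43.7 in brain (n = 2), 33.1 ± 3.17 in hypothalamus, 16.3 ± 3.11 in iBAT, 15.3 ± 4.00 in ingSAT, 9.84 ± 4.09 in spleen, 6.91 ± 5.53 in ileum and 1.52 ± 1.30 in liver. In contrast to Mt1, its highest mean in the largest table was in pgVAT, where the range overlapped that of brain. In the other tables it averaged 137 ± 14.5 CPM in spinal cord, 125 ± 22.6 in iBAT, 78.0 ± 10.9 in brain, 69.1 ± 18.7 in ileum, 22.6 ± 5.86 in liver, 10.2 ± 1.42 in bone marrow, and 5.28 ± 2.39 and 4.48 ± 3.09 in quadriceps.

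**Figure D1:**
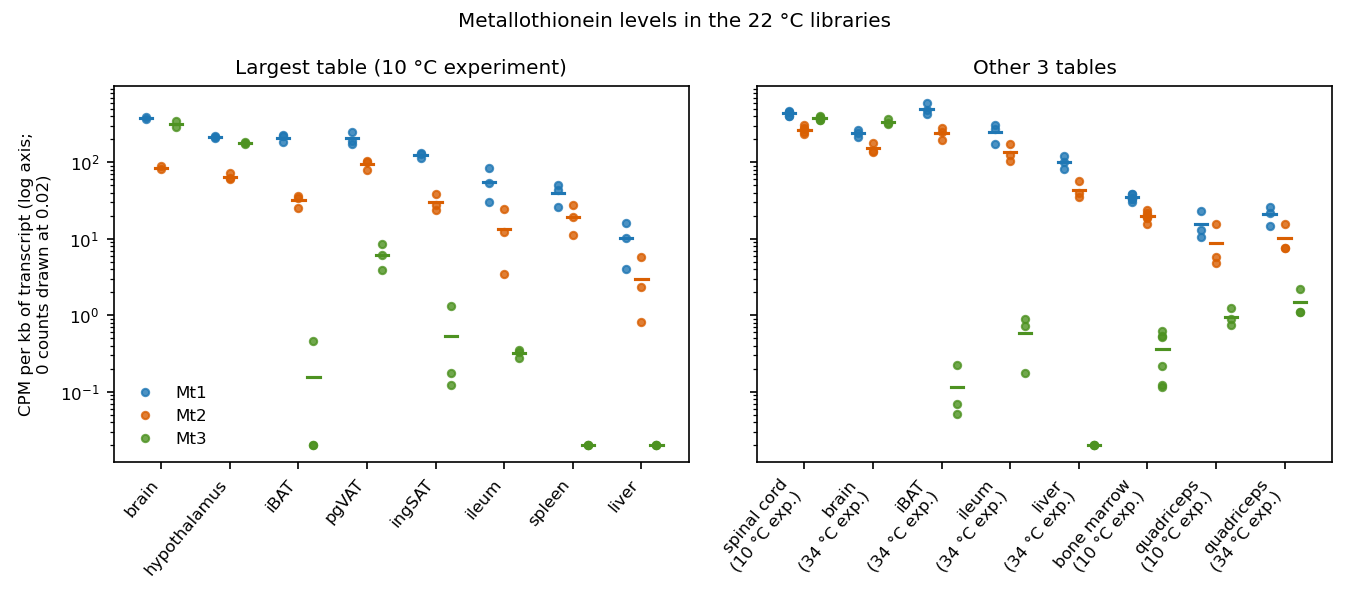
CPM per kilobase of transcript (log axis) of Mt1 (blue), Mt2 (orange) and Mt3 (green) in each 22 °C library, by tissue, in the largest table (left) and the other 3 tables (right); points are libraries, bars are group means, and 0 counts are drawn at 0.02. Mt3 lies near Mt1 in brain, hypothalamus and spinal cord and far below it elsewhere.

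Mt3 was a gene of the nervous tissues. At 22 °C it averaged 204 ± 12.2 CPM in spinal cord, 170.0 and 181 ± 15.1 in brain in the 10 °C and 34 °C experiments, and 95.9 ± 2.23 in hypothalamus, and per kilobase of transcript its level in spinal cord (380 CPM per kb) lay between those of Mt1 (438) and Mt2 (268). Outside them the highest mean was 3.31 ± 1.22 CPM in pgVAT, and all other tissues were under 1 CPM. Mt3 was listed with 0 counts in all 6 control libraries of liver, where 0 counts allow up to 0.0714 to 0.185 CPM when the limit is set at 3 counts in a library. In pgVAT at 10 °C the libraries held 3.16, 0 and 3.67 CPM of Mt3, and the summed level of 5 epididymis markers, all above 0 in some library, was 14458, 2.74 and 15347 CPM in the same libraries. In the 22 °C libraries of pgVAT the corresponding values were 2.12, 4.57 and 3.25 CPM of Mt3 and 2514, 662 and 490.3 CPM of the markers. At 10 °C the library without Mt3 reads had the fewest markers, whereas at 22 °C the library with the most markers had the least Mt3. Whether epididymis contributed the Mt3 reads was not tested.

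At 10 °C, Mt1 and Mt2 were lower than at 22 °C in ingSAT, ileum and spleen, and Mt2 alone passed the limits in pgVAT and liver. The limits were a fold above 1.5 and an unadjusted p no higher than 0.05, applied to a quasi-likelihood fit across all genes of each tissue. Over the 11 tissues Mt1 passed them in 3 and Mt2 in 5, each time lower at 10 °C, and Mt3 passed in none of the 4 tissues in which it was abundant enough to be tested. The share of all genes that passed differed widely between tissues and is given beside each.

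In ingSAT, where white fat takes on brown features in the cold, the difference was largest for Mt2. Mt2 was at 3.15, 2.01 and 4.44 CPM in the 10 °C libraries and at 12.0, 14.1 and 19.8 CPM in the 22 °C libraries. Mt1 was at 53.0, 39.99 and 42.1 CPM against 63.1, 73.3 and 71.1 CPM. The groups did not overlap for either gene, as for 32.8% of all genes tested in ingSAT. The log2 fold change was −2.26 (standard error 0.339) for Mt2 and −0.62 (0.142) for Mt1, and both passed the limits, as did 16.3% of all genes (9.14% lower at 10 °C, and 6.62% also with an adjusted p under 0.05). The call of Mt2 stayed when any library was left out, whereas that of Mt1 was lost without 10 °C replicate 2 or 3 or 22 °C replicate 2 or 3, with values from −0.51 to −0.58. Brown adipocyte markers moved in the same tissue: the sum of Ucp1, Cidea and Cpt1b, none of them at 0, was 1686 to 2179 CPM at 10 °C and 61.1 to 116 CPM at 22 °C. The sum of 4 neutrophil precursor markers was 5.25 to 10.7 CPM against 17.6 to 35.4 CPM. The part of these changes in the metallothionein levels was not tested.

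In ileum both genes were lower on average, with a wide spread at 22 °C. Mt2 was at 1.13, 1.45 and 1.57 CPM at 10 °C and at 1.75, 12.7 and 6.24 CPM at 22 °C, so that the groups were apart by little. Mt1 was at 17.5, 18.01 and 10.9 CPM against 16.5, 46.2 and 29.7 CPM and the groups overlapped. The log2 fold changes were −2.33 (0.639) and −0.99 (0.361), and both genes passed, against 2.71% of all genes (1.26% lower). Groups that did not overlap were found for 23.6% of genes. Mt1 lost its call without 10 °C replicate 3 (−0.80) or without 22 °C replicate 2 (−0.58), the library with the highest levels of both genes, and without the latter Mt2 was at −1.56 and still called. The sum of 4 enterocyte markers was 12386 to 14142 CPM at 10 °C and 7418 to 8445 CPM at 22 °C, and that of 4 macrophage markers was 69.8 to 76.5 CPM and 82.4 to 103 CPM, with none of these markers at 0. Their part in the result was not tested.

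In spleen, Mt2 lay within a narrow range at 10 °C, at 4.61, 4.75 and 4.79 CPM, and at 5.78, 9.77 and 13.96 CPM at 22 °C. Mt1 was at 13.4, 13.1 and 15.7 CPM against 14.5, 23.8 and 27.9 CPM, with overlap. The fitted changes were −1.05 (0.294) for Mt2 and −0.65 (0.221) for Mt1, and both passed, against 2.68% of all genes (2.04% lower), while the groups of 15.7% of genes did not overlap. Mt1 fell under a limit when 10 °C replicate 1 (−0.60) or 2 (−0.60) or 22 °C replicate 2 (−0.58) or 3 (−0.44) was left out. The same 10 °C libraries held less of 4 neutrophil precursor markers (Mpo, Elane, Prtn3 and Ctsg), summing to 3.84 to 9.78 CPM against 33.5 to 57.8 CPM, with none at 0. The sum of the endothelium markers was 454 to 505 CPM against 386 to 449 CPM. The part of these cells in the spleen values was not tested.

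In pgVAT, Mt2 was at 25.6, 18.97 and 35.9 CPM at 10 °C and at 41.1, 53.3 and 51.6 CPM at 22 °C, without overlap (11.8% of all genes). Its log2 fold change was −0.86 (0.280) and passed, against 7.94% of all genes (3.47% lower). The call was lost without 10 °C replicate 1 (−0.83), 22 °C replicate 2 (−0.80) or 22 °C replicate 3 (−0.81). Mt1 was at 70.8, 94.6 and 129 CPM against 105, 137 and 96.3 CPM and differed by −0.20 (0.291), with overlapping groups. The 10 °C library almost free of epididymis markers, replicate 2, had the lowest Mt2 level of its group.

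Liver had few reads of both genes in the 10 °C experiment. Mt2 had 12, 11 and 5 counts at 10 °C (0.736, 0.630 and 0.231 CPM) and 7, 49 and 20 counts at 22 °C (0.421, 2.95 and 1.19 CPM). The groups overlapped, and the fitted change of −1.55 (0.668) was past the limits, as for 3.28% of all genes (2.54% lower). Without any single one of the 10 °C libraries the call was lost (−1.85, −1.71 and −1.15 without replicates 1, 2 and 3). Without 22 °C replicate 2, which held 49 of the control counts, Mt2 was under the filter on low counts and was not tested. Mt1 was at 3.86, 6.08 and 4.07 CPM against 2.23, 8.84 and 5.57 CPM, a change of −0.25 (0.405), which became a call of −0.63 without 22 °C replicate 1 and 0.26 without 22 °C replicate 2. In these libraries the sum of 4 hepatocyte markers, none at 0, was 79428 to 82888 CPM at 10 °C and 55400 to 62709 CPM at 22 °C, and its part in the result was not tested.

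**Figure D2:**
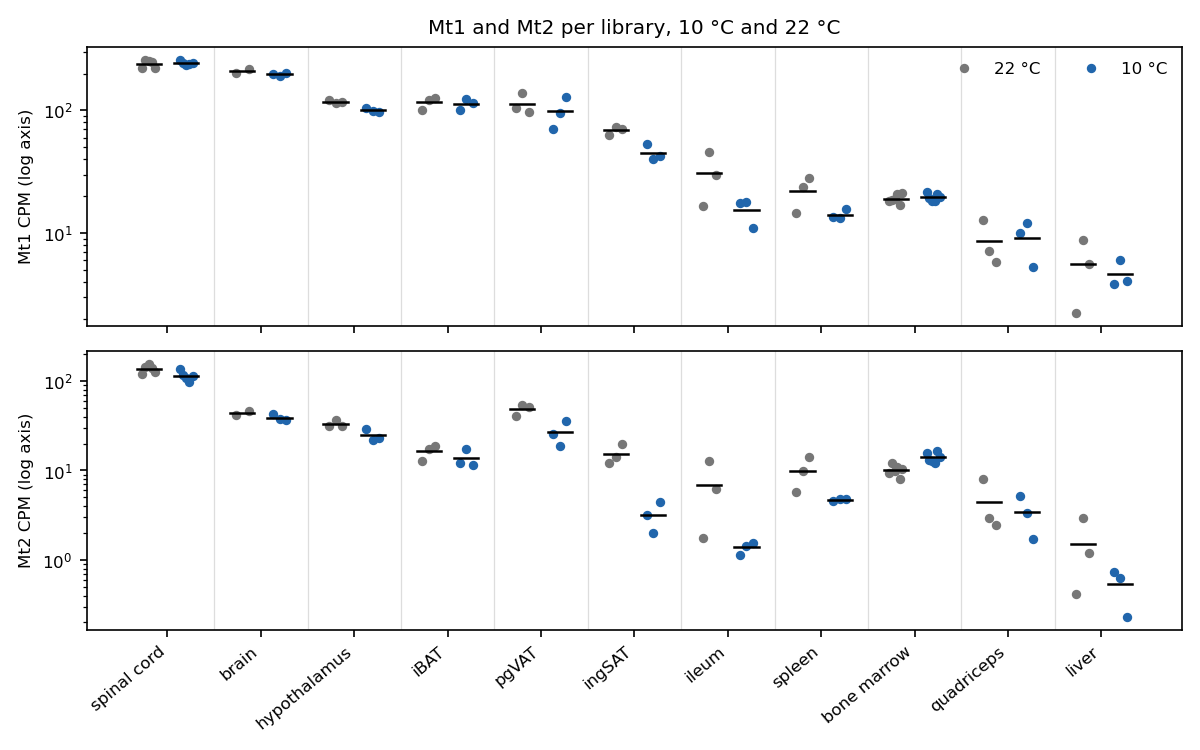
CPM (log axis) of Mt1 (top) and Mt2 (bottom) in each library of the 10 °C experiment, by tissue, at 22 °C (grey) and 10 °C (blue), with lines at the group means. In ingSAT the 10 °C libraries of Mt2 (2.01 to 4.44 CPM) lie below all 22 °C libraries (12.0 to 19.8 CPM), while in spinal cord and bone marrow those of Mt1 lie among them.

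In the nervous tissues the differences at 10 °C were small. In hypothalamus Mt1 was at 105, 99.3 and 97.1 CPM at 10 °C and 123, 114 and 116 CPM at 22 °C, and Mt2 at 28.8, 21.98 and 23.3 CPM against 31.5, 36.7 and 31.1 CPM. For both genes every 10 °C library was below every 22 °C library, as for 5.71% of all genes, yet the changes of −0.23 (0.0521) and −0.42 (0.104) were under the 1.5-fold limit, which 0.578% of genes passed together with the p limit. The hypothalamus libraries also differed in 4 oligodendrocyte markers, which summed to 3461 to 3510 CPM at 10 °C and 3918 to 4250 CPM at 22 °C, with none at 0, and the part of these cells was not tested. In brain, Mt1 was at 197, 190.1 and 203 CPM at 10 °C and 203 and 217 CPM at 22 °C, Mt2 at 42.4, 37.7 and 36.5 CPM against 41.3 and 46.2 CPM, and Mt3 at 152, 183 and 175 CPM against 154 and 186 CPM. The fitted changes in brain were −0.10 (0.0739), −0.17 (0.0925) and −0.00 (0.0914), and 0.801% of all genes passed the limits. Each 10 °C library of Mt1 lay below both controls, the closest by under 1 CPM, as was so for 12.4% of all genes. With the left-out library among the controls, these values turned to 0.19, 0.13 and 0.26. In brain the sum of 5 astrocyte markers was 1678 to 1857 CPM at 10 °C and 1916 to 1940 CPM at 22 °C, and that of 4 oligodendrocyte markers was 4706 to 5048 CPM and 5611 to 6169 CPM, with none at 0. The part of these cells in the brain values was not tested.

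In spinal cord, Mt1 ranged from 235 to 257 CPM (median 245, n = 5) at 10 °C and from 223 to 259 CPM (median 247, n = 5) at 22 °C, a change of 0.02 (0.0522). Mt2 was at 136, 118, 107, 96.4 and 114 CPM at 10 °C and at 120, 144, 157, 138 and 126 CPM at 22 °C, which gave −0.26 (0.0926) with overlapping groups. Mt3 was at 226, 218, 209, 398 and 213 CPM against 189, 219, 205, 211 and 194 CPM, and only replicate 4 lay far above the others. Its change of 0.31 (0.159) became 0.09 without that library. Replicate 4 also held the least oligodendrocyte RNA of the 10 spinal cord libraries (4 markers summing to 20884 CPM, the other 10 °C libraries 26202 to 27248) and the least neuron RNA (4 markers at 2995 CPM, the other 10 °C libraries 3570 to 3968), with none of the markers at 0. The limits were passed by 0.271% of all genes in spinal cord and by none of the metallothioneins. In hypothalamus, Mt3 was at 97.7, 103 and 106 CPM against 94.9, 98.5 and 94.5 CPM, a change of 0.09 (0.0517).

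In bone marrow, in contrast to the other tissues, Mt2 was higher in the cold. It ranged from 12.1 to 16.4 CPM (median 13.6, n = 6) at 10 °C and from 8.03 to 12.2 CPM (median 10.2, n = 6) at 22 °C, and the highest 22 °C library just reached into the 10 °C range. The log2 fold change of 0.46 (0.101) was under the fold limit, and 1.29% of all genes passed. Mt1 ranged more alike in the groups, with 18.2 to 21.5 CPM (median 19.4) against 16.8 to 21.4 CPM (median 18.6) and a change of 0.04 (0.0680). The sum of 4 red cell precursor markers was 10772 to 13740 CPM at 10 °C and 8237 to 10481 CPM at 22 °C, and that of 4 B cell markers was 648 to 756 CPM and 468 to 643 CPM, with none at 0. Their part in the Mt2 value was not tested.

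Brown adipose tissue and muscle showed no difference past the limits at 10 °C. In iBAT, the tissue with 13.2% of all genes past the limits, Mt1 was at 100.2, 125 and 114 CPM against 101, 122 and 126 CPM (−0.04, 0.131) and Mt2 at 12.1, 17.4 and 11.4 CPM against 12.8, 17.5 and 18.6 CPM (−0.27, 0.203). In quadriceps, where 3.83% of genes passed, Mt1 was at 9.94, 12.0 and 5.32 CPM against 12.8, 7.12 and 5.75 CPM (0.09, 0.369), and Mt2 at 5.19, 3.36 and 1.72 CPM against 8.04, 2.94 and 2.46 CPM (−0.38, 0.532). In both tissues the groups overlapped for both genes.

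At 34 °C the liver stood out, with Mt1 and Mt2 higher than at 22 °C. Mt1 was at 131, 94.5 and 308 CPM at 34 °C and at 44.4, 55.0 and 67.3 CPM at 22 °C, and Mt2 at 57.0, 51.2 and 192 CPM against 18.1, 20.4 and 29.2 CPM. The groups did not overlap for either gene, as for 17% of all genes tested. The log2 fold changes were 1.68 (0.388) for Mt1 and 2.15 (0.482) for Mt2, both past the limits, which 3.38% of all genes passed (1.77% higher). Replicate 3 at 34 °C had the highest level of both genes, and without it the changes were 1.02 and 1.26, still past the limits. The sum of 4 hepatocyte markers, none at 0, was 118397 to 125229 CPM at 34 °C and 81421 to 93291 CPM at 22 °C. Whether the level of hepatocyte RNA has a part in the result was not tested.

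**Figure D3:**
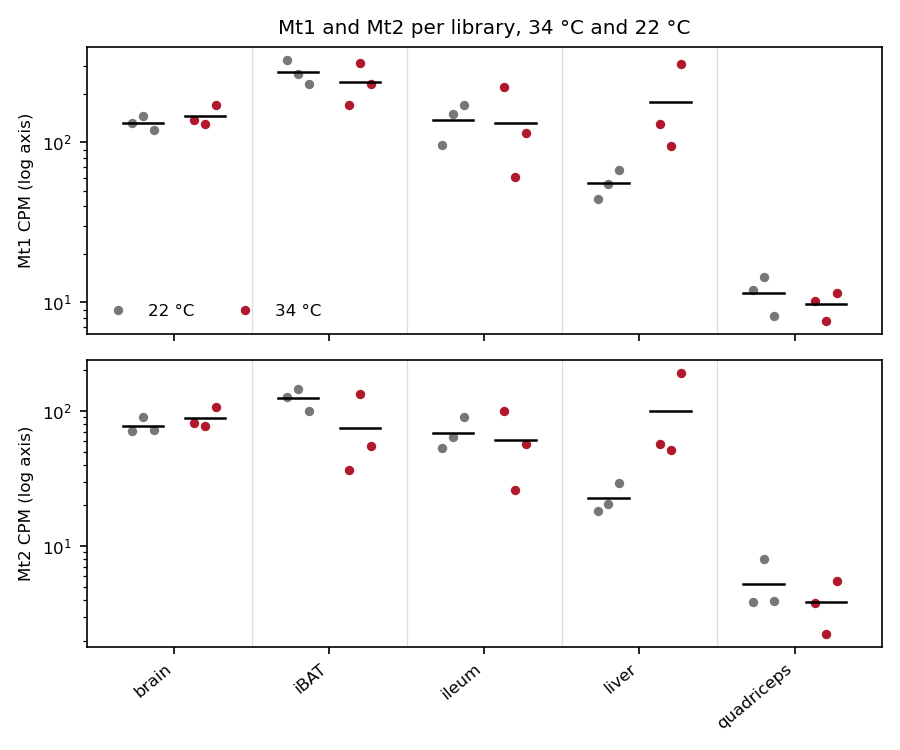
CPM (log axis) of Mt1 (top) and Mt2 (bottom) in each library of the 34 °C experiment, by tissue, at 22 °C (grey) and 34 °C (red), with lines at the group means. The liver libraries at 34 °C lie above all those at 22 °C for both genes.

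The other tissues at 34 °C did not pass the limits for any of the members. In iBAT Mt2 was at 36.8, 133 and 55.5 CPM at 34 °C and at 127, 146 and 101 CPM at 22 °C, a change of −0.73 (0.431) that became a call of −1.45 without 34 °C replicate 2, the library with the highest level. Mt1 in iBAT was at 171, 313 and 232 CPM against 327, 268 and 233 CPM (−0.21, 0.225), and 19.4% of all genes in iBAT passed. With scaling by library size alone the median of all genes in iBAT moved to 0.30 and the Mt1 value to 0.05. In ileum, where 2.83% of genes passed, Mt1 spread from 60.6 to 223 CPM at 34 °C and from 96.7 to 171 CPM at 22 °C (−0.07, 0.456), and Mt2 from 26.2 to 100.2 CPM and from 53.4 to 89.8 CPM (−0.17, 0.455). In brain (0.193% of genes passed) the changes were 0.14 (0.102) for Mt1, 0.18 (0.122) for Mt2 and 0.06 (0.0724) for Mt3, and in quadriceps (1.21%) they were −0.24 (0.225) for Mt1 and −0.45 (0.384) for Mt2, with overlapping groups throughout.

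**Figure D4:**
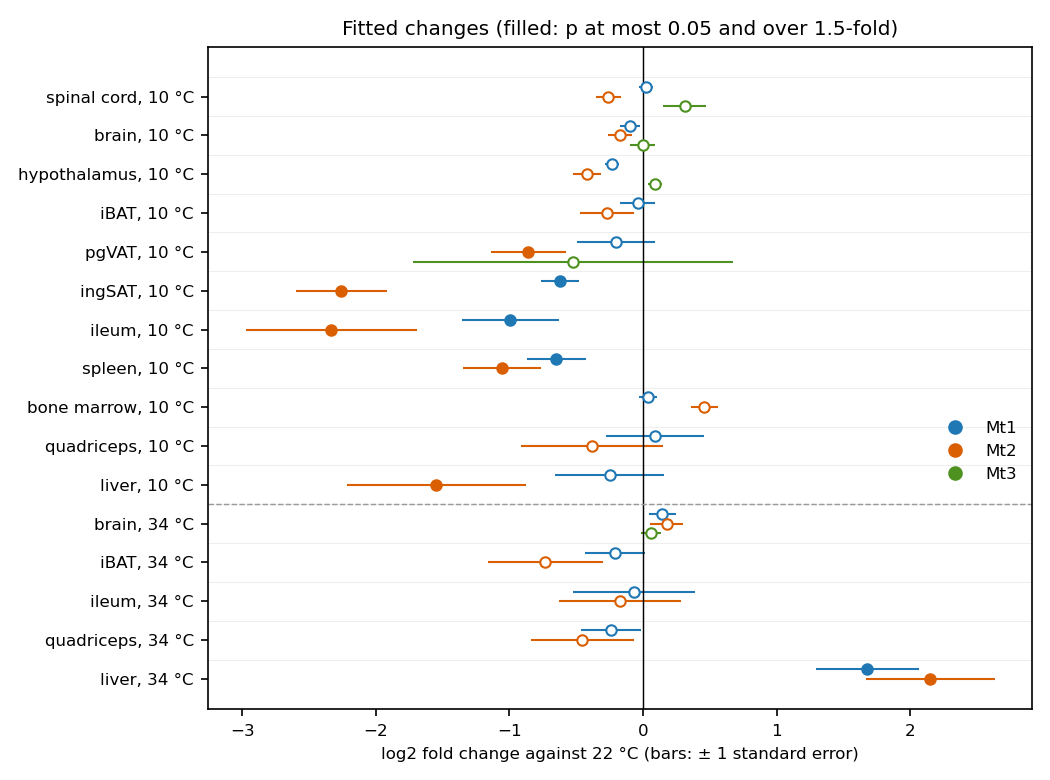
Fitted log2 fold change against 22 °C, with bars of ± 1 standard error, of Mt1 (blue), Mt2 (orange) and Mt3 (green) in each of the 16 comparisons; filled points passed the limits of p at most 0.05 and over 1.5-fold. The points that passed are all below 0 at 10 °C (8 points) and above 0 at 34 °C (2 points, both in liver).

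The ratio of Mt2 to Mt1 did not overlap between 10 and 22 °C in 5 of 11 tissues, lower at 10 °C in 4 and higher in 1. The share of other gene pairs whose ratio does the same was not computed, so the count is a description. The levels of single genes did not overlap for 32.8% of those tested in ingSAT, 15.7% in spleen and 11.8% in pgVAT. In bone marrow this share was 5.84% and in spinal cord 1.61%. Each level was divided by its transcript length before taking the ratio, which was computed in each library. The Mt2 to Mt1 ratio was lower at 10 °C in ingSAT, with 0.0541 to 0.113 at 10 °C and 0.205 to 0.299 at 22 °C. It was 0.328 to 0.388 against 0.428 to 0.537 in spleen, 0.434 to 0.567 against 0.578 to 0.670 in spinal cord and 0.216 to 0.388 against 0.417 to 0.576 in pgVAT, without overlap in these tissues. In bone marrow the order was the opposite, with 0.718 to 0.846 at 10 °C and 0.513 to 0.711 at 22 °C. The groups overlapped in the other 6 tissues, among them ileum (0.0694 to 0.154 against 0.114 to 0.296) and liver (0.0610 to 0.205 against 0.203 to 0.358). In liver at 34 °C the ratio was 0.4664 to 0.671 against 0.399 to 0.4659, and the groups overlapped in the other 4 tissues of the 34 °C experiment. Group means ran from 0.0770 to 0.471 in the 16 groups of the largest table and from 0.315 to 0.764 in the 16 groups of the other tables. At 22 °C the 4 tissues measured in both sets had a lower mean in the largest table than in the 34 °C experiment, with 0.212 ± 0.0920 and 0.540 ± 0.0703 in ileum, 0.224 (n = 2) and 0.632 ± 0.0480 in brain, 0.150 ± 0.0120 and 0.489 ± 0.0854 in iBAT, and 0.263 ± 0.0831 and 0.435 ± 0.0336 in liver. Kit, vendor, age and sequencing differ between these sets and cannot be told apart.

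**Figure D5:**
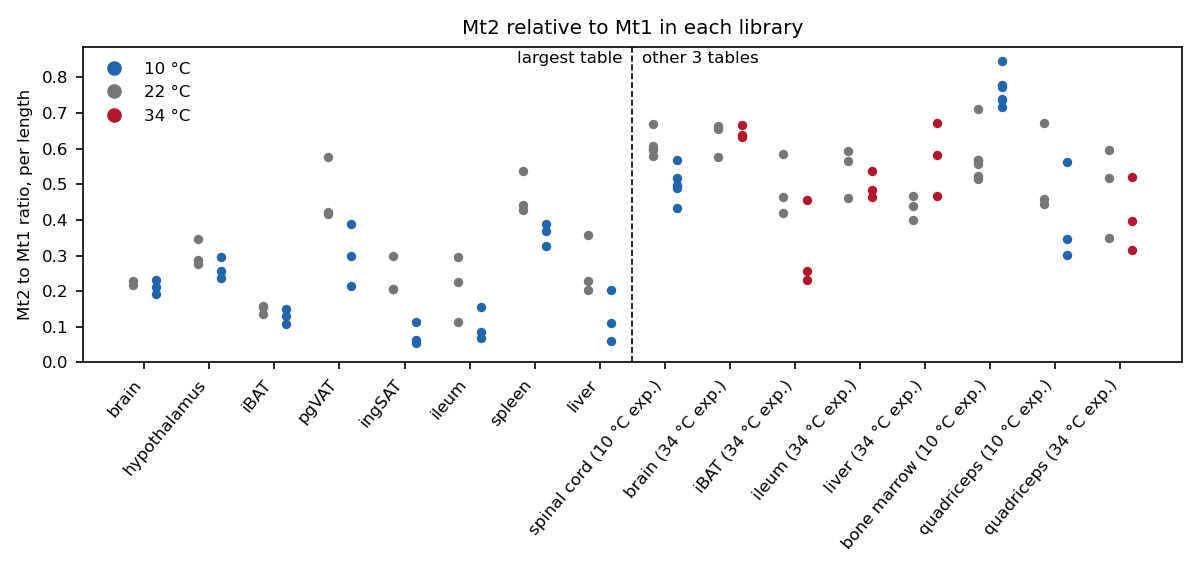
Ratio of Mt2 to Mt1, each per transcript length (linear axis from 0), in each library at 10 °C (blue), 22 °C (grey) and 34 °C (red), with the largest table left of the dashed line. The 10 °C libraries lie below the 22 °C libraries in ingSAT (0.0541 to 0.113 against 0.205 to 0.299) and above them in bone marrow.

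Within groups, Mt1 and Mt2 went up and down together from library to library. When each log2 level was set against the mean of its own tissue and temperature group, the deviations of Mt1 and Mt2 correlated with a Pearson r of 0.846 over 105 libraries in 32 groups, and 86 libraries lay on the same side of the mean for both genes. The points share library, depth and scaling, so the value is a description. In the 48 libraries of the largest table, including the brain library left out elsewhere, Mt2 was the gene of 15887 whose deviations were most like those of Mt1 (r = 0.805), and Mt1 the gene most like Mt2. Next after Mt2 came Nenf (0.755), Trappc3 (0.730), Ltc4s (0.711) and Cercam (0.704), and next after Mt1 came Cdh24 (0.618), Tmem52 (0.616), Polr2g (0.591) and Gmds (0.585). Without the brain library, r between Mt1 and Mt2 was 0.775 and each remained the closest to the other. Mt3 had 10 counts or fewer in 31 of the 48 libraries, where its deviations carry little, so its r with Mt1 (0.1298) and Mt2 (0.243) is only a value. With the same limit, its closest genes were Tfap2b (0.887), Ankfn1 (0.878), Arnt2 (0.866), Bex2 (0.865) and Kcnk1 (0.864).

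By the levels themselves, which mainly follow the differences between tissues, the genes most like Mt1 were G6pc3 (0.935), Tmeff1 (0.930), Slc2a12 (0.928), Arl2 (0.927) and Rhob (0.919) over the same 48 libraries. Mt2 was most like Mt1 (0.895), followed by Slc35e4 (0.864), Mturn (0.859), Adgrg1 (0.840) and Slc26a8 (0.838). The levels of Mt3 were most like those of Ankrd45 (0.984), Unc13c (0.983), Gpc5 (0.981), Fut9 (0.981) and Slc35f3 (0.980).

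Few other genes of zinc and copper handling passed the limits, and their share differed between the tissues in which a metallothionein did. A list of 26 zinc genes (the factor Mtf1, Mt4, and the zinc exporters and importers of the Slc30 and Slc39 families) and 12 copper genes (transporters, chaperones and copper enzymes) gave 8 calls at 10 °C, 6 higher and 2 lower, in 349 tests over 11 tissues (2.29%, against 4.80% of all genes), and 5 calls at 34 °C, 3 higher and 2 lower, in 156 tests over 5 tissues (3.21%, against 5.31%). In liver at 34 °C, where Mt1 and Mt2 were higher, 0 of 32 zinc and copper genes were called by edgeR's quasi-likelihood test, by its exact test or by DESeq2, and 3 had an unadjusted p under 0.05 at any fold, with a list median of 0.04 against 0.01 for all genes. In ingSAT, with the lowest Mt2 to Mt1 ratio, 1 of 30 was called and the list median was 0.00, against −0.01 for all genes. In spleen at 10 °C, 2 of 34 were called, Slc39a8 and Atp7b, both lower (5.88%, against 2.68% of all genes). In pgVAT 2 of 33 were called (6.06%, against 7.94%) and in ileum at 10 °C 1 of 33 (3.03%, against 2.71%), all higher. In liver at 10 °C, 0 of 31 were called.

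The best known zinc genes beside the metallothioneins rarely passed the limits. Mtf1, which encodes MTF-1 itself, changed by −0.31 to 0.21 on the log2 scale over the 11 tissues at 10 °C. Over the 5 tissues at 34 °C it changed by −0.37 to −0.05. It was called in 0 of these 16 comparisons by the quasi-likelihood test, the exact test or DESeq2. Its unadjusted p was under 0.05 in 2 at 10 °C and 1 at 34 °C. The smallest edgeR adjusted p of Mtf1 at 34 °C was 0.0289, with a change under the fold limit. Slc30a1, the zinc exporter of the cell membrane and another target of MTF-1, was called only in ileum at 34 °C (−0.68, standard error 0.196, edgeR adjusted p = 0.594), where its mean was 75.5 CPM against 121 CPM. At 10 °C Slc30a1 changed by −0.41 to 0.15, with an unadjusted p under 0.05 in 4 of 11 tissues. Its smallest edgeR adjusted p at 10 °C was 0.0637. At 34 °C its unadjusted p was under 0.05 in 2 of 5 tissues. In liver at 34 °C it differed by 0.32 (0.0945, adjusted p = 0.248). The zinc importer Slc39a14, known from the inflamed liver, was called in 0 of 16 comparisons by these tests, with an unadjusted p under 0.05 in 0 at 10 °C and 1 at 34 °C. Slc39a10, another zinc importer, was at 17.9, 12.2 and 14.2 CPM in iBAT at 34 °C and at 11.1, 8.88 and 9.08 CPM at 22 °C and rose by 0.61 (0.173, edgeR adjusted p = 0.0361). In pgVAT at 10 °C it was called at 0.76 (0.233), with an adjusted p of 0.593 in the edgeR fit.

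Copper chaperones of the mitochondrion gave the other calls with an adjusted p under 0.05. Cox17, which carries copper to cytochrome c oxidase, was at 95.2, 109 and 96.6 CPM in ingSAT at 10 °C and at 45.9, 46.4 and 62.8 CPM at 22 °C, and rose by 0.96 (0.154, edgeR adjusted p = 0.0178). Sco1, which takes part in the same delivery, was at 15.3, 16.5 and 15.2 CPM in iBAT at 34 °C and at 30.03, 25.3 and 31.4 CPM at 22 °C, and fell by 0.88 (0.110, edgeR adjusted p = 0.00269). In neither tissue did the groups overlap for these genes.

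Genes that respond to other signals known to induce metallothioneins moved in part of the tissues. These were 8 glucocorticoid targets, 12 acute-phase genes and 8 genes of the oxidative stress response, and they gave 34 calls at 10 °C (13 higher, 21 lower, 13.8% of 246 tests, against 4.80% of all genes) and 17 calls at 34 °C (9 higher, 8 lower, 15.5% of 110 tests, against 5.31%). In ingSAT at 10 °C, 8 of 24 were called and all 8 were lower, against 9.14% of all genes called lower in ingSAT, with a list median of −0.36. Hp, which encodes the haemoglobin-binding plasma protein haptoglobin, was at 725, 497 and 567 CPM against 2443, 1444 and 1885 CPM and fell by 1.69 (0.254, edgeR adjusted p = 0.0146). Lrg1, another acute-phase glycoprotein, was at 104, 66.7 and 80.4 CPM against 242, 217 and 173 CPM and fell by 1.33 (0.204, adjusted p = 0.0152). Zbtb16, a transcription factor induced by glucocorticoids, was at 84.6, 89.8 and 87.1 CPM against 149.7, 109 and 150.4 CPM and fell by 0.65 (0.147, edgeR adjusted p = 0.0461).

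In spleen at 10 °C, 3 of 22 of these genes were called, all lower (2.04% of all genes), and all 3 belong to the acute-phase list. Hp was at 15.3, 10.6 and 11.5 CPM against 29.7, 43.3 and 35.6 CPM and fell by 1.53 (0.179, edgeR adjusted p = 0.0347). Lcn2, whose product lipocalin 2 is stored in neutrophil granules, was at 3.13, 4.92 and 3.26 CPM against 16.7, 23.7 and 31.6 CPM and fell by 2.65 (0.273, edgeR adjusted p = 0.0249). They went with the fall of Mpo, a neutrophil precursor marker, from 27.3 to 4.09 CPM in the same libraries (adjusted p = 0.0253), and the part of these cells was not tested. In ileum at 10 °C, in contrast, 3 of 24 were called and all were higher (1.44% of all genes), with 0 at an adjusted p under 0.05 and 5 at an unadjusted p under 0.05 in the edgeR fit. The exact test called 3 and DESeq2 called 2. In iBAT at 10 °C, where Mt1 and Mt2 were not called, 5 of 22 of these genes were called higher and 5 lower. These calls made up 45.5%, against 13.2% of all genes. Of them, 6 had an adjusted p under 0.05 in the edgeR fit. Of these 6, Hp (−1.44, edgeR adjusted p = 0.00041) and Lrg1 (−0.98, adjusted p = 0.00497) were lower. Higher were the acute-phase genes Orm1 (1.43, edgeR adjusted p = 0.0066) and Orm2 (1.90, adjusted p = 0.0100). The oxidative stress genes Gclm (0.78, edgeR adjusted p = 0.00364) and Srxn1 (0.82, adjusted p = 0.00251) were higher as well. In pgVAT at 10 °C, where Mt2 was called lower, 3 of 25 were called higher and 2 lower. Of these, 0 had an adjusted p under 0.05.

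In liver at 34 °C, 4 of 27 were called higher (1.77% of all genes) and 2 lower. Socs3, a cytokine-induced inhibitor of STAT3 signalling, was at 20.4, 26.7 and 30.3 CPM at 34 °C and at 8.66, 11.2 and 9.01 CPM at 22 °C, and rose by 1.42 (0.166, edgeR adjusted p = 0.0159). The library with the highest Mt1 and Mt2, replicate 3, also had the highest Socs3. Between the other libraries the order was opposite, as replicate 2 had more Socs3 but less Mt1 and Mt2 than replicate 1. Of the 12 acute-phase genes Socs3 was the only one called higher by the quasi-likelihood test, 1 was called lower, and the list median was −0.22. Of the 8 glucocorticoid targets 2 were called higher and 1 lower, 0 of them at an adjusted p under 0.05, with a list median of 0.45. Of 7 oxidative stress genes tested 1 was called higher and 0 lower, with a list median of 0.16. In either direction 3.38% of all genes were called. In liver at 10 °C, 1 of the 27 was called, and it was lower.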

How the data were processed

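Gene counts of 106 libraries were deposited by the authors as raw counts per gene in 4 tables, and per the labels reads were aligned with STAR 2.5.3a to mm10 and counted with HTSeq 0.6p1, with Picard 1.141 listed beside them. The methods name a stranded kit for bone marrow, spinal cord and the 34 °C experiment and 1 that does not mark strand for the other tissues, by that wording also for quadriceps at 10 °C, which stands in the table of the 34 °C libraries. Largest-table identifiers were matched to symbols (21583 of 21647 rows).

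Comparisons were fitted one tissue at a time with edgeR 4.0.16 (R 4.3.3), using genes with average log2 CPM above 0, TMM scaling, glmQLFit and glmQLFTest, two-sided, p-values adjusted by Benjamini-Hochberg over all genes tested. A call needs a fold above 1.5 and an unadjusted p no higher than 0.05, as in the study. The fit was tested on simulated data. The brain and quadriceps controls of the 10 °C fits are those whose mean counts equal the authors' group means, and the other quadriceps controls entered the 34 °C fit. p-values measure the spread between libraries. Alternatives were edgeR's exact test, DESeq2 1.42.0, library size scaling, 2 other filters, all controls, a replicate block, an adjusted p and 93 fits with 1 library left out. No 2 libraries of the same table held identical values. The limit set by 0 counts is 3 counts, and covers counting error only.

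The members, the lists and the tests were chosen with earlier results of these data known. Named beside the members are Mtf1, Slc30a1, Slc39a10, Slc39a14, zinc and copper genes called with an adjusted p under 0.05, genes of the other lists so called where a member is called, and for each member the 5 genes with the highest Pearson r (log2 CPM, prior count 2). Gene positions and coding sequences came from GENCODE on GRCm38.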

Additional observations from a re-analysis of the deposited data

Results flagged for a closer look

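Of 12 groups of 4 to 10 libraries of the members, 1 held a library far from the others. Chance alone flags about 1 in 20 of such groups, so 1 flagged among 12 is not rare. Mt3 in spinal cord at 10 °C was at 398 CPM in replicate 4, and the gap to the nearest of the other libraries was 0.909 of the whole range of the group, against a critical value of 0.71 for 5 libraries. Mt1 and Mt2 of the same library were not apart, with 239 and 96.4 CPM.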

How the results depend on the processing

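The count of metallothionein calls at 10 °C was 8 with edgeR's exact test, DESeq2, library size scaling, filterByExpr and all controls, 9 when every gene above 1 count was kept (with Mt3 in bone marrow, higher at 10 °C), and 7 to 9 with 1 library left out. At an adjusted p under 0.05 it was 2 by the quasi-likelihood test, both in ingSAT, 3 by the exact test and by DESeq2, which added Mt2 in ileum, and 1 (Mt2 in ingSAT) with the replicate block or with every gene above 1 count kept. At 34 °C the count was 2 under these alternatives, 3 with a replicate block and 2 to 3 with 1 library left out. At an adjusted p under 0.05 it was 0 by the quasi-likelihood test, 2 by the exact test (Mt1 and Mt2 in liver) and 1 by DESeq2 (Mt2 in liver). The zinc and copper count at 10 °C (8) was 5 with DESeq2, 1 at an adjusted p and 6 to 13 with 1 library left out, with 13 without pgVAT 10 °C replicate 2. At 34 °C (5) it was 2 at an adjusted p and 3 to 6 with 1 left out, with 3 without iBAT 34 °C replicate 1, ileum 34 °C replicate 2 or ileum 22 °C replicate 3. The inducer target count at 10 °C (34) was 13 at an adjusted p and 29 to 43 with 1 left out, and at 34 °C (17) it was 3 and 13 to 21. The cause of these changes was not tested beyond the stricter threshold itself. No called fold change of a member turned its sign.

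The replicate numbers showed no clear pairing of the libraries. In none of the tissues with 3 or more numbers did every same-numbered pair correlate above 0.1. In ileum at 10 °C the pairs of replicates 1 and 3 correlated at 0.459 and 0.473, and that of replicate 2 at −0.0806. The values compared are deviations that sum to 0 within a group, so such correlations are a weak guide. Whether same-numbered libraries shared a cage or a batch was not tested. With the replicate block the calls at 10 °C were 7 for the members, without Mt2 in liver, 9 for zinc and copper genes and 32 for inducer targets. In quadriceps and at 34 °C the numbers stand only in the column names, and a block on them, added after the data were seen, gave 3 member calls at 34 °C (with Mt2 in iBAT at −0.92), 6 for zinc and copper genes and 17 for inducer targets, and 0 member calls in quadriceps at 10 °C. Groups of 3 libraries, most of them pools, and the low counts of Mt2 in liver and ileum and of Mt3 outside nervous tissue limit what can be seen. Where a group was left with 2 libraries, their spread was estimated together with that of the other group.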
